A study of Mus musculus with 56 samples.

Results

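The 8 genes described here, *Hmgcs1*, *Idi1*, *Fdps*, *Fdft1*, *Sqle*, *Lss*, *Insig1* and *Srebf2*, belong to cholesterol synthesis and its control. They were taken by symbol from a raw RNA count table of 55359 genes, of which 19657 passed a filter on low counts and were tested, and all 8 members were among those tested. The table holds RNA-Seq of OVA:Kb-specific CD8+ T cells, endogenous polyclonal cells that recognize an OVA peptide and were found with a tetramer, from spleen and lymph nodes of female C57BL/6 mice bought at 8 to 12 weeks of age. Every library was made from 200 sorted live cells, and samples fell into 7 groups. Naive mice (n = 3) had received nothing. Sensitized mice (n = 4) had rejected skin of 2W-OVA.BALB/c mice, which carry the *Act-2W-OVA* transgene, and were studied at day 30 or later. N+P mice were naive females after a pregnancy by a 2W-OVA.BALB/c male, sorted into C1 (PD1-, n = 3) and C5 (PD1+CD73+, n = 3). S+P mice were sensitized by the graft and then went through such a pregnancy, and were sorted into C4 (PD1-, n = 6), C5 (PD1+CD73+, n = 6) and C7 (PD1+CD73-, n = 5). N+P and S+P cells were taken on post-partum days 0 to 3. The comparisons ask how rejection of a graft, a first pregnancy, and a pregnancy that follows a rejected graft alter these T cells.

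Animal cells make cholesterol from acetyl-CoA through mevalonate, isoprenoid diphosphates, squalene and lanosterol. When sterols in the endoplasmic reticulum run low, the transcription factor SREBP2 is released from that membrane by Scap, cut in the Golgi apparatus and carried to the nucleus, where it raises transcription of the enzymes, often together with the CCAAT-binding factor NF-Y. Activated T cells are known to raise sterol synthesis as they grow and divide, while resting T cells need little of it.

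The promoters of the 8 genes were read from GRCm39, since their shared control is what ties them together. The stretch below each name holds the CCAAT box that lies nearest to the start site of the canonical transcript among those before it, on the strand of the gene, with the box in capitals. It reads CCAAT or, where the box lies on the other strand, ATTGG.
Hmgcs1 (chr13:120151882-120151916, plus strand): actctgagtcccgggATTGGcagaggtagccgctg
Idi1 (chr13:8935868-8935902, plus strand): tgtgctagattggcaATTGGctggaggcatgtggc
Fdps (chr3:89009371-89009405, minus strand): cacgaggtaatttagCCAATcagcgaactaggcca
Fdft1 (chr14:63415443-63415476, minus strand): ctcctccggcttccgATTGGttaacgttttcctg
Sqle (chr15:59186804-59186838, plus strand): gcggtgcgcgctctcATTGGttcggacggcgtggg
Lss (chr10:76367362-76367389, plus strand): cctggtgatgctctgATTGGccgagctc
Insig1 (chr5:28276179-28276213, plus strand): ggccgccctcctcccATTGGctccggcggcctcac
Srebf2 (chr15:82031320-82031354, plus strand): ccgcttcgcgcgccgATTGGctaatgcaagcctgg

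Within 250 bases before and 50 after the start, a CCAAT box (CCAAT, both strands) was present in 8 of 8 members and in 10 of 14 other enzymes of the pathway. Over all 21757 protein-coding promoters of the same length the share was 39.9%. A GC box (GGGCGG, both strands) was present in 6 of 8 members, and in 42.5% of all promoters. An E-box (CACGTG) was present in 1 of 8 members and in 7.82% of all promoters. The core of a sterol regulatory element (TCACNCCAC, both strands) was found in 1 of 8 members, *Hmgcs1*, in 0 of the 14 other enzymes and in 1.34% of all promoters. Matches to different motifs did not overlap in the members. The 250 bases before the start of *Hmgcs1* are shown whole because they carry both elements, in capitals, with the sterol element at position -232 from the start site and the CCAAT boxes at -140 and -85.
Hmgcs1 upstream (chr13:120151732-120151981, plus strand): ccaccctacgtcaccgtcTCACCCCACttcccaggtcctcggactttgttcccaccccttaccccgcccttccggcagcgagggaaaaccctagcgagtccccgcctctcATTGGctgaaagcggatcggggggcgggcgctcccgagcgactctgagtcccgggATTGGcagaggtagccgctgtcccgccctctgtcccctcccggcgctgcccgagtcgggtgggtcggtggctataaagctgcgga
Only exact matches to the strings given were counted (N is any base), so sites with other letters were missed. A match is a description of these letters and was not tested as a binding site.

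The 56 libraries held 6636532 to 32625243 counts and 7436 to 25514 genes with at least 1 count. A single library was deposited with the same values for Naive replicate 1 and for S+P C4 replicate 1, and neither copy was used. The first library of S+P C7 replicate 1 and the second of replicate 2 were nearly identical, so these replicates entered as 1 averaged sample. After technical libraries had been added up there were 30 samples. Naive replicate 1 and S+P C4 replicates 1, 2 and 3 rested on 1 library each. So did S+P C5 replicates 2 and 3 and S+P C7 replicate 3. Fewest genes were detected in S+P C4 replicate 2 (8002), S+P C4 replicate 3 (7436) and S+P C7 replicate 3 (7879), which are called shallow below. The word refers to genes detected, not to reads. These samples held 25237385, 15547934 and 21997707 counts, where the median library held 17299849. The 6 CD8 T cell markers summed to 4490 to 8787 CPM (reads scaled to a common library size, with edgeR's TMM factors) in every sample. *Cd4* was at 0 in 27 of 30 samples and reached 3.71 CPM, and of 5 B cell genes *Pax5* and *Ms4a1* were at 0 in 25 and 27 samples, while *Cd79b* was at 0 in 7 and reached 61.2 CPM. The B cell genes summed to 33.3 to 62.8 CPM in N+P C5, 11.8 to 34.04 CPM in Naive and 7.44 to 14.7 CPM in Sensitized. S+P C7 replicate 3 held 16515 CPM of 3 red cell genes and 328 CPM of 2 NK cell genes, the highest values of all samples, and Sensitized replicate 1 held the highest sum of 6 myeloid genes, 412 CPM. The genes of the sorting markers, *Pdcd1* (PD1) and *Nt5e* (CD73), summed to 305.5 to 534 CPM in N+P C5 and 142 to 548 CPM in S+P C5. In S+P C7 the sum ran from 0.0467 over a median of 258 to 592 CPM, so its lowest sample had almost none of either, although sorted as PD1+. It was 0.0 to 214 CPM in S+P C4, 116 to 278 CPM in Sensitized and 26.75 to 69.8 CPM in Naive. Whole groups differed too. The NK cell genes summed to 53.3 to 126 CPM in Sensitized against 0.0 to 0.0823 CPM in Naive, and to a median of 4.51 CPM in S+P C5. Of these genes *Ncr1* was at 0 in 23 of 30 samples and *Klrb1c* in 5. Whether NK cells or the sorted T cells held this RNA was not tested. A sum of 9 proliferation genes had a median of 1141 CPM in S+P C7, 601 CPM in S+P C5, 376 CPM in Sensitized and 300 CPM in Naive. Their part in the results below was not tested.

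Per kilobase of exon, the median level over the 30 samples was highest for *Srebf2* (2.90 CPM per kb), followed by *Hmgcs1* (2.75), *Insig1* (2.54) and *Fdft1* (2.43). *Lss* (0.633 CPM per kb), *Sqle* (0.631) and *Idi1* (0.581) were lower, and *Fdps* was lowest (0.0315 CPM per kb). With every group weighted equally, the mean level was highest for *Hmgcs1* (3.65 CPM per kb, against 3.37 for *Srebf2*), and *Sqle* (1.13) and *Idi1* (0.899) came before *Lss* (0.889). All neighbours in this order overlapped in their values over samples, *Idi1* and *Fdps* included. Of the 30 samples, 26 had under 1 CPM of *Fdps* and 12 had under 1 CPM of *Idi1*, while *Insig1* had at least 2.93 CPM in all 30.

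Reads without a unique position in the genome had been removed by the authors, and some of these genes have near copies. *Idi1*, isopentenyl-diphosphate isomerase, had 3 stretches elsewhere in GRCm39 at 95% identity or more, which covered 95.8% of its transcript, and 84.8% of its windows of 1 read length (150 bases) occurred letter for letter in a copy such as *Idi1-ps1* (chr2:53584377-53586870, 99.3% identical). *Fdps*, farnesyl diphosphate synthase, had 4 such stretches over 91.3% of its transcript, with 7.43% of windows exactly repeated. The share of exactly repeated windows was 10.7% for *Insig1*, 4.28% for *Hmgcs1*, 1.59% for *Fdft1* and 0.0% for *Sqle*, *Lss* and *Srebf2*. Near copies covered 74.15% of the transcript of *Insig1*, 48.03% of that of *Fdft1* and 9.67% of that of *Hmgcs1*. The level of *Idi1* is uncertain for this reason. *Fdps* had fewer windows exactly repeated than *Insig1*, and whether lost reads have a part in its low level was not tested. How many reads of any of these genes were removed was not tested either. Exons of other genes on the opposite strand covered 24.8% of the exonic bases of *Fdft1* (all by *Ctsb*), 12.03% of *Hmgcs1*, 10.7% of *Srebf2*, 9.10% of *Idi1*, 5.29% of *Sqle* and 4.77% of *Lss*, and 0.0% of *Fdps* and *Insig1*. Whether the counting used strand is not given in the sources used here, so reads there cannot be told apart.

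**Figure D1:**
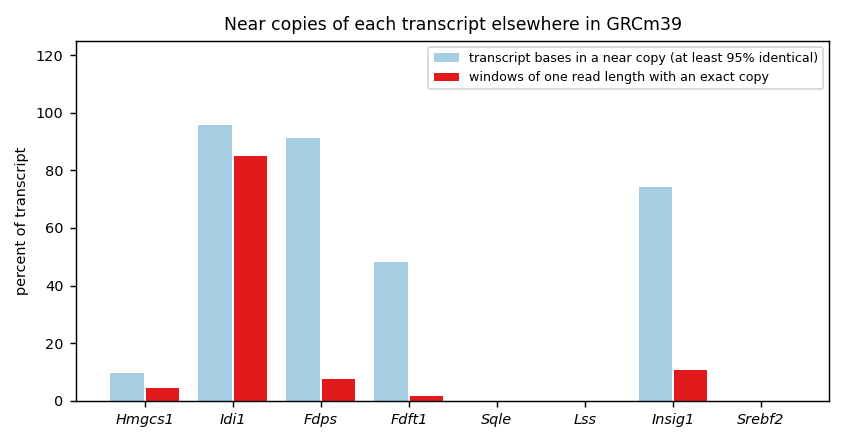
Bars give, for each of the 8 genes on the x axis, the percent of the transcript that lies in a stretch at least 95% identical elsewhere in GRCm39 (blue) and the percent of its windows of 150 bases with an exact copy (red). *Idi1* stands alone with 84.8% of windows repeated, and *Fdps* has 91.3% of its bases in near copies but 7.43% of windows repeated.

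Of the regulators, *Srebf2* (ENSMUSG00000022463, chr15:82031382-82093201) encodes SREBP2 itself. Its 3 Naive samples had 54.5, 61.3 and 41.1 CPM, and the 4 Sensitized samples had 32.4, 27.3, 24.4 and 20.2 CPM. Every Sensitized sample was below every Naive sample. N+P C1 had 34.7, 56.5 and 19.6 CPM and N+P C5 had 30.8, 37.5 and 52.9 CPM, values that overlapped with Naive. In the sensitized and pregnant mice *Srebf2* ran from 1.51 over a median of 27.6 to 44.5 CPM in S+P C4 and from 13.2 over 25.9 to 38.2 CPM in S+P C5. The 5 S+P C7 samples had 22.2, 0.0, 22.3, 11.6 and 13.9 CPM, the lowest group mean (14.0 ± 9.18 CPM, SD, n = 5) against 52.3 ± 10.2 CPM (SD, n = 3) in Naive. The sample at 0.0 was the shallow S+P C7 replicate 3.

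*Insig1* (ENSMUSG00000045294, chr5:28276315-28283668) encodes the membrane protein that holds Scap and SREBP in the endoplasmic reticulum when sterols are plentiful. Its group means were 8.54 ± 3.04 CPM in Naive (SD, n = 3), 16.3 ± 9.22 CPM in Sensitized (SD, n = 4), 15.04 ± 13.1 CPM in S+P C5 (SD, n = 6) and 22.4 ± 19.1 CPM in S+P C7 (SD, n = 5). The Naive samples had 6.42, 12.03 and 7.18 CPM and the Sensitized samples 13.3, 30.01, 11.6 and 10.3 CPM. These overlapped. The Sensitized mean rested on 30.01 CPM in replicate 2, and that of S+P C7 on 56 CPM in the shallow replicate 3, where the other 4 samples had 8.04 to 17.3 CPM.

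*Hmgcs1* (ENSMUSG00000093930, chr13:120151915-120170470), the cytosolic HMG-CoA synthase, an early step on the way to mevalonate, had 13.9, 19.7 and 35.7 CPM in Naive and 5.86, 0.0, 10.6 and 13.8 CPM in Sensitized. The groups did not overlap, but the nearest samples, 13.9 and 13.8 CPM, were close to each other. N+P C1 had 23.4, 10.6 and 25.01 CPM and N+P C5 had 6.59, 25.8 and 33.3 CPM. In S+P C4 the values spanned 0.0 to 126 CPM with a median of 20.4, and both ends were shallow samples (replicates 2 and 3). S+P C5 ran from 1.63 over 12.3 to 33.7 CPM, and S+P C7 had 5.45, 0.0, 15.1, 9.72 and 43.5 CPM.

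*Idi1* (ENSMUSG00000058258, chr13:8935537-8942487), which interconverts the 5-carbon isoprenoid units, had 12.2, 3.48 and 6.196 CPM in Naive and 1.47, 2.54 and 0.0 CPM in N+P C5, with no overlap. N+P C1 had 0.783, 5.19 and 5.63 CPM and overlapped with Naive. Sensitized samples had 0.0, 0.05002, 3.61 and 0.493 CPM, of which 1 was above the lowest Naive sample. S+P C4 and S+P C5 had medians of 0.789 and 1.98 CPM, and S+P C7 had 0.0, 0.0, 6.90, 6.41 and 8.85 CPM.

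*Fdps* (ENSMUSG00000059743, chr3:89000888-89019213), which joins those units into farnesyl diphosphate, stayed near the detection limit. It had 0.165, 1.59 and 0.491 CPM in Naive and 0.144, 0.05002, 0.0 and 0.0260 CPM in Sensitized. The groups did not overlap, yet 7 of 8 Sensitized libraries had 3 counts or fewer. Among the 6 S+P C5 samples replicate 6 had 5.58 CPM, and the other 5 had at most 0.331 CPM. That value came from 1 technical library with 263 counts, while the other library of the same mouse and subset had 0.

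*Fdft1* (ENSMUSG00000021273, chr14:63382189-63417027), squalene synthase, commits farnesyl diphosphate to sterols. It had 31.7, 20.2 and 19.4 CPM in Naive and 8.28, 9.30, 18.2 and 2.47 CPM in Sensitized, without overlap. N+P C1 had 10.97, 21.3 and 25.2 CPM, and N+P C5 spread from 1.02 over 6.46 to 27.6 CPM. S+P C4 had a median of 6.97 CPM (0.0 to 26.2), S+P C5 one of 9.27 CPM (0.0 to 31.4), and S+P C7 had 29.7, 0.0, 28.1, 19.99 and 8.95 CPM.

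*Sqle* (ENSMUSG00000022351, chr15:59186869-59203043), squalene epoxidase, is a rate-limiting oxygen-dependent step. Over the 30 samples it had the widest spread of the 8 genes (SD of log2(CPM + 1) 1.85, against 0.602 to 1.68 in the others). Naive samples had 36.0, 3.02 and 6.498 CPM, Sensitized samples 5.50, 46.3, 5.71 and 1.43 CPM, N+P C1 samples 0.0603, 0.0 and 7.01 CPM and N+P C5 samples 13.6, 27.0 and 0.0 CPM. All groups overlapped with Naive.

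*Lss* (ENSMUSG00000033105, chr10:76367298-76392976), lanosterol synthase, closes the sterol rings. It had 0.0, 6.96 and 16.7 CPM in Naive and 16.2, 4.10, 14.9 and 35.5 CPM in Sensitized. In S+P C4 it was at 0.0 in 3 of the 6 samples (1 of them not shallow, and each of 1 library). The median there was 0.119 and the highest value 14.7 CPM. In S+P C5 *Lss* ran from 0.0 over 4.93 to 10.2 CPM. S+P C7 had 12.95, 5.09, 14.3, 8.27 and 12.7 CPM. Both S+P C4 and S+P C5 overlapped with Sensitized through Sensitized replicate 2.

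**Figure D2:**
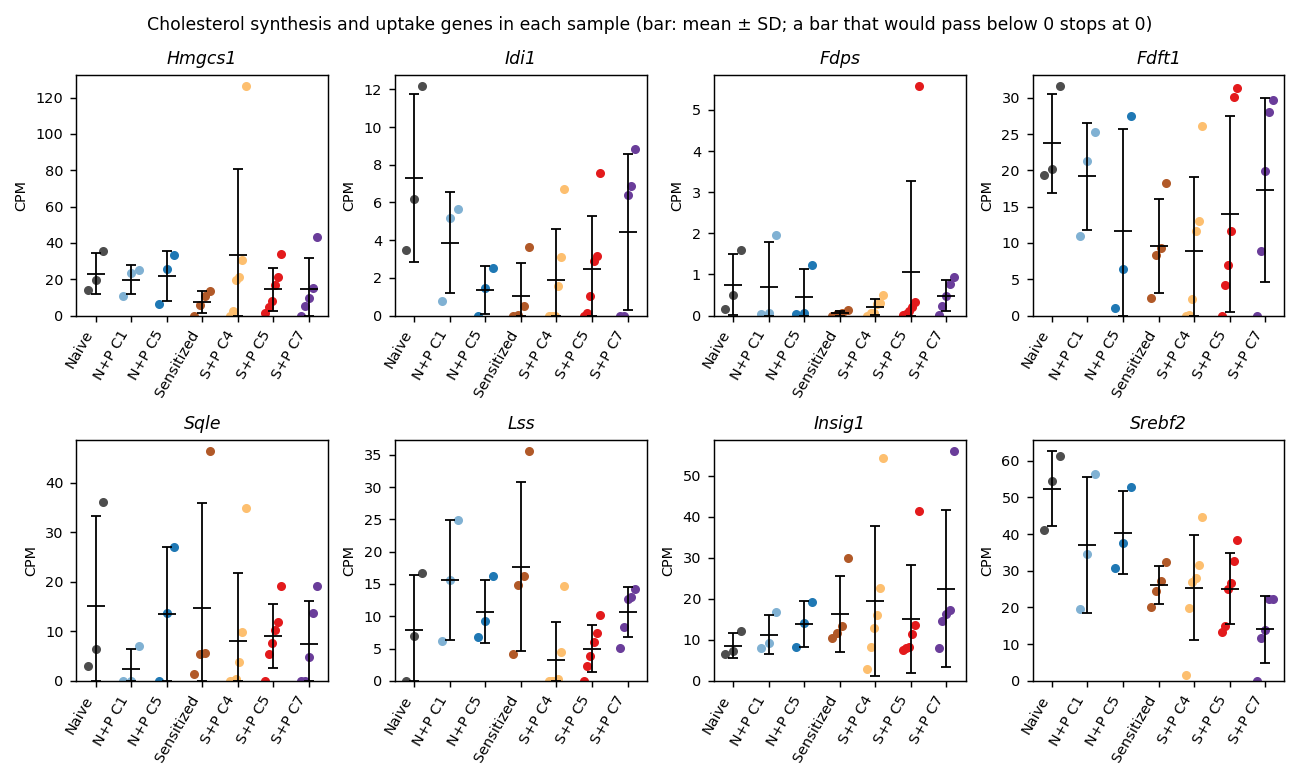
Each panel plots CPM on the y axis (linear, own scale) for 1 of the 8 genes, with 1 point per sample in the 7 groups on the x axis and a bar for the mean ± SD. *Srebf2* has its 4 Sensitized samples (20.2 to 32.4 CPM) below its 3 Naive samples (41.1 to 61.3 CPM), while *Hmgcs1* in S+P C4, *Fdps* in S+P C5 and *Insig1* in S+P C7 each have 1 sample far above the rest.

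Between Sensitized and Naive cells, which also differed in the NK cell genes above, 6 of 8 members had lower fitted values in Sensitized and 2 (*Insig1* and *Lss*) higher, with a median log2 fold change of -1.16 where the median over all tested genes was 0.04. In 4 of 8, *Hmgcs1*, *Fdps*, *Fdft1* and *Srebf2*, every Sensitized sample was below every Naive sample, and over all genes 3.81% showed this. *Srebf2* had a fitted log2 difference of -1.01 (standard error, SE, 1.04), *Hmgcs1* of -1.61 (SE 1.60), *Fdft1* of -1.31 (SE 1.66) and *Fdps* of -3.67 (SE 2.17), and the adjusted p of edgeR's quasi-likelihood test was 0.682 for *Fdps* and 1.0 for the others. For *Srebf2* the approximate 95% interval of the log2 difference ran from -3.12 to 1.11. In bulk RNA of sorted cells, fewer cells of a type and less RNA per cell cannot be told apart. Of the members 0 were called, which took an adjusted p below 0.1 together with a log2 fold change beyond 0.9 in size. This rule passed 0.153% of all genes. Of the members 0 also had an unadjusted p under 0.05, which 7.82% of all genes had. DESeq2 called 0 of them too. Fitted to Sensitized and Naive alone, *Srebf2* had an unadjusted p of 0.0162 and an adjusted p of 0.427 from edgeR, and over all alternatives its adjusted p was at least 0.134.

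In naive mice after pregnancy, no member passed the test against Naive cells in either subset. In N+P C1, 6 members had lower and 2 higher fitted values, with a median of -0.27 (all genes 0.0). *Sqle* had a fitted log2 difference of -2.68 (SE 2.52, edgeR adjusted p = 1.0). The share of all genes called was 0.0%, and 3.23% had an unadjusted p under 0.05, as against 0 of 8 members. In N+P C5 the median was -0.27 too (all genes 0.0), and *Idi1* had a fitted log2 difference of -2.44 (SE 2.63, edgeR adjusted p = 1.0). *Idi1* was the only member in which every N+P C5 sample was below every Naive sample, a pattern of 5.48% of all genes. Called were 0.0407% of all genes, and 5.33% had an unadjusted p under 0.05, again as against 0 of 8 members. Both comparisons share the Naive samples. Between N+P C5 and N+P C1, 4 members were higher and 4 lower (0.00509% of all genes called, 4.31% at an unadjusted p under 0.05). *Sqle* had the smallest p there, with a fitted log2 difference of 2.52 (SE 2.51). N+P C1 replicate 3 decided both values of *Sqle*, since the 4 libraries of the other N+P C1 mice held at most 2 counts. Without it the unadjusted p was 0.0298 against Naive and 0.0315 against N+P C5 (edgeR, adjusted p = 1.0 in both), and no fold is given against counts so low.

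In sensitized mice, the 3 subsets after pregnancy were each set against the same Sensitized samples, from which S+P C5 and S+P C7 also differed in the median of the proliferation genes above. The median over members was 0.11 for S+P C4 (all genes -0.14), 0.25 for S+P C5 (all genes -0.01) and 0.66 for S+P C7 (all genes 0.0). The called share of all genes was 0.00509%, 0.0712% and 0.0305%, and the share at an unadjusted p under 0.05 was 12.7%, 13.0% and 10.2%. Of the members 0 passed either rule in any of the 3. *Lss* had log2 fold changes of -2.44 in S+P C4 (SE 1.53, edgeR adjusted p = 0.616), -1.83 in S+P C5 (SE 1.52) and -0.73 in S+P C7 (SE 1.58). Without S+P C4 replicate 6 the first of these was -4.19, with an unadjusted p of 0.0183 and an adjusted p of 0.371 from edgeR. *Hmgcs1* had a log2 fold change of 2.14 in S+P C4 (SE 1.47, edgeR adjusted p = 0.700). Without the shallow samples these values became 1.32 for *Hmgcs1* and -1.83 for *Lss* in S+P C4, and 0 members were called. *Srebf2* had log2 fold changes of -0.04, -0.05 and -0.89 in the 3 subsets (SEs 0.88, 0.88 and 0.91), which leaves an interval for S+P C5 from -1.85 to 1.74, and the value for S+P C7 was -0.57 without its shallow sample.

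*Fdps* in S+P C5 had the smallest p of all 96 tests of members, with a fitted log2 difference of 4.15 (SE 2.10, unadjusted p = 0.0566, edgeR adjusted p = 0.411). DESeq2 called this gene (log2 fold change 4.25, adjusted p = 0.0582), in a test that called 5.32% of all genes it could adjust. The value is that of 1 library, since without S+P C5 replicate 6 the fitted log2 fold change was 1.32.

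Among the subsets of sensitized and pregnant mice, 0 of 8 members were called by edgeR or DESeq2 in any comparison, and 0 had an unadjusted p under 0.05 from edgeR. Between S+P C5 and S+P C4, *Fdps* had a fitted log2 difference of 2.35 (SE 1.64) that turned to -0.51 without S+P C5 replicate 6. *Hmgcs1* had one of -1.22 (SE 1.23) that was -0.38 without the shallow samples. It turned to 0.32 in a fit of only these subsets with replicate number as a block. In the main fit of this comparison 0.0305% of all genes were called and 13.3% had an unadjusted p under 0.05. Between S+P C7 and S+P C4, *Lss* had a fitted log2 difference of 1.72 (SE 1.45), with 0.00509% of all genes called and 15.9% at an unadjusted p under 0.05. Without S+P C4 replicate 6 it was 3.48, with an unadjusted p of 0.0372 and an adjusted p of 0.301 from edgeR. Comparing the PD1+CD73- and PD1+CD73+ subsets, C7 and C5, *Srebf2* had the smallest p, with a fitted log2 difference of -0.84 (SE 0.84, interval from -2.55 to 0.87), and the value was -0.55 without the shallow samples. The called share of all genes was 0.0% and 12.7% had an unadjusted p under 0.05. The median of all genes itself was 0.11 for S+P C5 against S+P C4 and 0.23 for S+P C7 against S+P C4. Over the members it was 0.26 and 0.58, and without the shallow samples -0.10 and 0.41. S+P C4 replicate 6 weighed on both, which were 1.36 and 1.55 without it (all genes 0.199 and 0.365). The block on replicate number gave 1.05 and 0.76 (all genes 0.644 and 0.122).

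Between the PD1+CD73+ subsets of both kinds of mice, S+P C5 and N+P C5, 4 members were higher and 4 lower, from -1.11 (*Lss*) to 1.24 (*Fdps*). Called were 0.0% of all genes, and 5.88% had an unadjusted p under 0.05. The interaction, the change from Sensitized to S+P C5 minus the change from Naive to N+P C5, had its smallest p for *Fdps* (log2 difference 4.90, SE 3.00, edgeR adjusted p = 1.0), and *Idi1* followed with a log2 difference of 3.68 (SE 3.34). For the interaction 0.0254% of all genes were called and 6.42% had an unadjusted p under 0.05, as against 0 of 8 members under either rule.

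The intervals were wide. The half-width of the approximate 95% interval, in its median over the 8 members, was 3.60 for Sensitized against Naive and 3.01 for S+P C5 against Sensitized on the log2 scale, and the narrowest single one was 2.04 and 1.68.

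**Figure D3:**
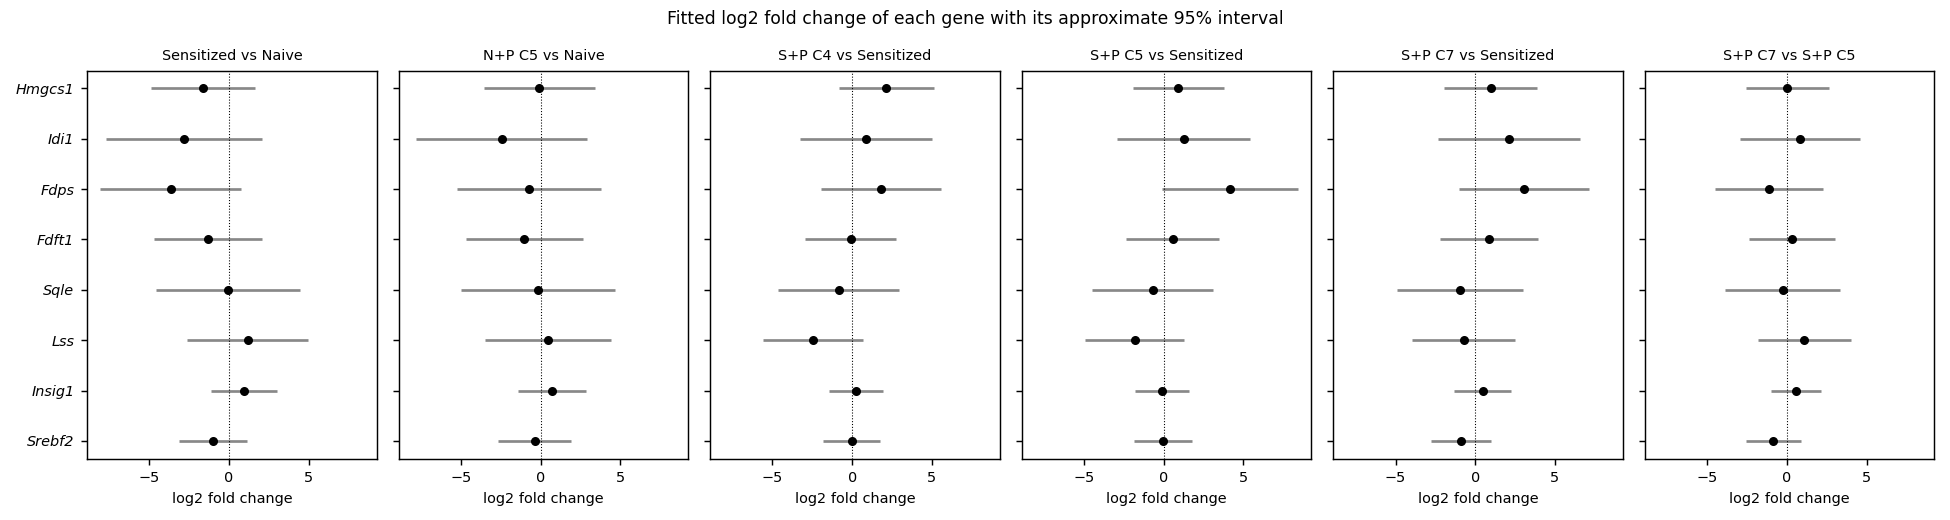
Points give the fitted log2 fold change (x axis) of each of the 8 genes (y axis) in 6 comparisons, 1 per panel, and lines give the approximate 95% interval. Every line crosses 0, with *Fdps* in S+P C5 against Sensitized nearest to not doing so (interval from -0.12 to 8.43).

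Technical libraries of the same mouse and subset show how far repeated measurements lay apart. Their part in the width of the intervals was not tested. Over 22 such pairs, *Srebf2* and *Insig1* had more than 3 counts in both libraries of all 22 pairs, and *Hmgcs1* in both of 21. *Fdft1* had more than 3 counts in only 1 of 2 libraries in 3 pairs, *Sqle* and *Lss* in 5, *Idi1* in 7 and *Fdps* in 9. Some of these gaps were large. *Sqle* had 926 counts in 1 library of Sensitized replicate 2 and 0 in the other, which is the sample with 46.3 CPM. *Fdft1* had 461 counts and 0 in Sensitized replicate 1, *Lss* had 443 counts and 0 in Naive replicate 3, and *Idi1* had 305 counts and 0 in S+P C4 replicate 6. Genes of about the same mean level showed the same: for those near *Sqle* the median was 5 such pairs, and for those near *Idi1* it was 8. The median difference between paired libraries was smallest for *Fdps* (0.227 of log2(CPM + 1)), which was near 0 in most of them. Among the other members it was smallest for *Srebf2* (0.682) and largest for *Lss* (1.51). Whether paired libraries came from separate sorts or from 1 lysate is not given in the sources used here.

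**Figure D4:**
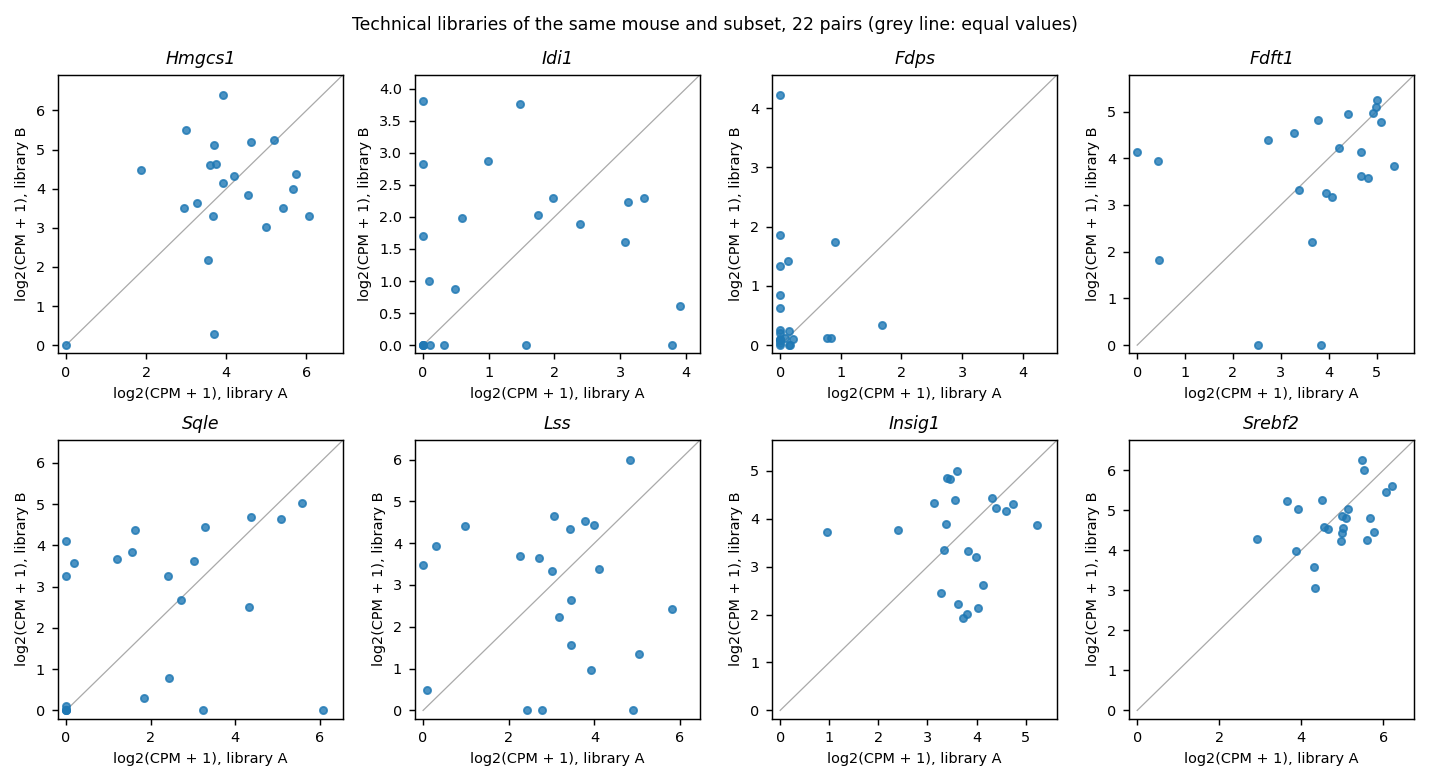
Each panel plots log2(CPM + 1) of 1 technical library (x axis) against that of the other (y axis) for 22 pairs of the same mouse and subset. A point on an axis is a pair with no counts of the gene in at least 1 of its libraries. More than 3 counts in only 1 of the libraries occurred in 5 pairs for *Sqle* and in none for *Srebf2*.

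Over the 30 samples, *Hmgcs1* and *Srebf2* had a Pearson's r of 0.650 (log2 CPM, n = 30), *Idi1* and *Sqle* of 0.597, and *Fdft1* and *Lss* of 0.551, while *Insig1* was opposed to *Hmgcs1* (-0.537) and *Srebf2* (-0.526). Samples differ in group and in the number of genes detected. Without the 3 shallow samples (n = 27) these correlations became 0.083, 0.466, 0.422, -0.203 and 0.076. Among genes outside the lipid lists, those most like the members (correlation with the mean of their standardized log2 CPM, n = 30, 8222 genes of at least 10 CPM compared) were *Zbtb43* (0.852), *Ctns* (0.843), *Pdp2* (0.841), *Mob1b* (0.839), *Nopchap1* (0.824) and *Fra10ac1* (0.820). Without the shallow samples these values lay between 0.625 and 0.710, and the median over all genes compared went from 0.400 to 0.050.

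Of 51 other genes of sterol and lipid metabolism 49 were tested, and edgeR called 0 in each of the 12 comparisons, with 0 to 4 at an unadjusted p under 0.05. Of these other genes only *Npc2*, *Scd2* and *Mbtps1* were followed in other fits. Those fits called *Npc2* and *Scd2*, as given with these genes. The 14 other enzymes of the synthesis pathway had 0 of 14 at an unadjusted p under 0.05 in each comparison, with a median log2 fold change of -0.05 between Sensitized and Naive.

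*Npc2* encodes the soluble protein that hands cholesterol from the lysosome to Npc1 for export. It had 518, 631 and 572 CPM in Naive and 620, 523 and 469 CPM in N+P C1, against 305, 373 and 331 CPM in N+P C5 and 384, 230, 333 and 286 CPM in Sensitized. The lowest Naive sample was above the highest of N+P C5 and of Sensitized, patterns of 5.48% and 3.81% of all genes. In the subsets after both graft and pregnancy, S+P C4 ran from 92.3 over a median of 292 to 379 CPM, S+P C5 from 109 over 157 to 266 CPM, and S+P C7 had 270, 134, 229, 180 and 351 CPM. *Npc2* had a log2 fold change of -0.90 for Sensitized against Naive (SE 0.38, unadjusted p = 0.0252, edgeR adjusted p = 0.627) and of -0.77 for N+P C5 against Naive (SE 0.41, unadjusted p = 0.0713). For S+P C5 it had one of -0.87 against Sensitized (SE 0.32, edgeR adjusted p = 0.277), of -0.62 against S+P C4 (SE 0.29, edgeR adjusted p = 0.347) and of -0.996 against N+P C5 (SE 0.35, edgeR adjusted p = 0.809). The interaction was -0.10 (SE 0.52). DESeq2 without the shallow samples called *Npc2* in Sensitized against Naive (-0.91, adjusted p = 0.00797) and in S+P C5 against N+P C5 (-0.98, adjusted p = 0.00154). The lowest and highest adjusted p among alternatives were 0.00797 and 0.906 in the first of these, 0.00154 and 1.0 in the other, and 0.00243 and 0.750 in S+P C5 against Sensitized. Over the same edgeR and DESeq2 alternatives the lowest was 0.0065 in S+P C5 against S+P C4 and 0.0822 in N+P C5 against Naive. The highest lay above 0.1 in both. A call also took a log2 fold change beyond 0.9 in size.

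*Scd2*, a stearoyl-CoA desaturase of fatty acid synthesis, had 2.97, 12.3, 11.5 and 18.5 CPM in Sensitized and ran from 30.3 over 47.8 to 96.2 CPM in S+P C5, without overlap. Every S+P C5 sample was above every Sensitized sample in 1.45% of all genes, *Acaca* among them. *Scd2* had a fitted log2 difference of 2.33 (SE 1.09, unadjusted p = 0.0403, edgeR adjusted p = 0.350), and of 1.90 for S+P C5 against S+P C4 (SE 0.92, edgeR adjusted p = 0.365). Over the alternatives the first adjusted p ran from 0.0166 to 1.0, where DESeq2 without the shallow samples called it (2.39, adjusted p = 0.0166) and so did edgeR fitted to these groups alone (2.35, adjusted p = 0.0957). *Mbtps1*, the site-1 protease that cuts SREBP, had a log2 fold change of 1.30 in S+P C4 against Sensitized (SE 0.60, edgeR adjusted p = 0.363), with a group mean of 99.3 ± 96.6 CPM (SD, n = 6) against 40.4 ± 18.7 CPM (SD, n = 4), and its highest S+P C4 sample had 294 CPM. *Nr1h3*, *Cyp27a1* and *Fads2* also had an unadjusted p under 0.05 in a comparison, but no fold is given for them because a group compared was at or near 0. *Cyp27a1* had 250 CPM in the shallow S+P C7 replicate 3 and at most 0.683 CPM in all others, and the highest values of *Nr1h3* and *Fads2* were 5.00 and 4.81 CPM. The cholesterol exporter gene *Abca1* had 19.8 to 31.7 CPM in Naive, 23.9 to 42.8 CPM in N+P C1, 10.8 to 21.5 CPM in N+P C5 and 5.43 to 6.74 CPM in Sensitized. It had 0.0 to 46.55 CPM in S+P C4, 0.0 to 11.4 CPM in S+P C5 and 0.0 to 4.42 CPM in S+P C7, with an unadjusted p of 0.288 for Sensitized against Naive.

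**Figure D5:**
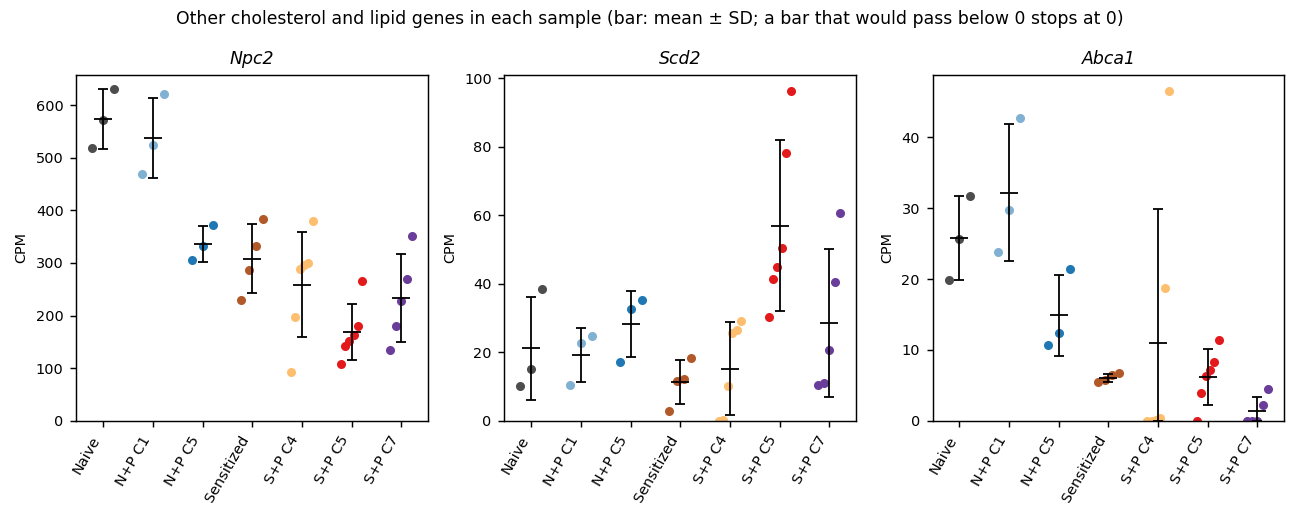
Each panel plots CPM (y axis, linear, own scale) of *Npc2*, *Scd2* or *Abca1*, with 1 point per sample in the 7 groups and a bar for the mean ± SD. *Npc2* has all Naive and N+P C1 samples at 469 CPM or more and every other sample at 384 CPM or less, while *Scd2* has all S+P C5 samples at 30.3 CPM or more and all Sensitized samples at 18.5 CPM or less.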

How the data were processed

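RNA of 200 OVA:Kb-specific CD8+ T cells per library was amplified by SmartSeq2 and sequenced in 1 run. The authors trimmed reads (Cutadapt 3.4), aligned them to GRCm39 (STAR 2.6.1b), removed those without a unique position and deposited raw read counts per gene from featureCounts 2.0.1. The strand setting and annotation release are not given in the sources used here. Counts of technical libraries were added up per mouse and subset, so they did not count as replicates, and all 56 columns were mapped to labels. Between groups of different mice, p-values measure the spread between samples within groups. The main fit treated subsets of the same mouse as independent samples and did not pair them. In comparisons between such subsets its p-values therefore do not measure a spread between mice. SmartSeq2 reads carry no molecular identifiers, so counts are not independent molecules.

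All 7 groups were fitted together with edgeR 4.0.16 (R 4.3.3; filterByExpr with a minimum count of 10, TMM, robust quasi-likelihood test), with Benjamini-Hochberg adjustment over 19657 genes. DESeq2 1.42.0 and the other alternatives are described in the closing section. Standard errors were taken as the log2 fold change divided by the square root of F, which makes the 95% intervals approximate. The members and the lists of other lipid genes were chosen with earlier results of these data known. All 8 members were followed in every comparison. Of the other lipid genes those past both thresholds were to be named and, per comparison, the 2 in each direction with the smallest unadjusted p under 0.05. *Abca1* lies outside this rule and was named after its values were seen, and some genes of the lists are not reported here. Gene models, promoters and overlaps come from GENCODE M39 on GRCm39, and near copies from blastn 2.17.0 against that genome (at least 95% identity over 100 bases). Replicate numbers were taken to mark a mouse within N+P and within S+P, which the labels do not state. The paper reports sorting in 2 independent experiments, and the labels do not say which samples belong to which. Samples of the same number deviated together, with a correlation of 0.056 to 0.144 between N+P C5 and N+P C1 and of 0.093 to 0.235 between S+P C5 and S+P C4.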

Additional observations from a re-analysis of the deposited data

Results flagged for a closer look

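In 32 sets of values (a gene in a group of 4 to 6 samples), 9 had 1 sample far from the others by Dixon's test at its 95% limit, where chance gives about 1 in 20 for normally distributed values. These values are CPM on a linear scale, skewed to the right, for which that share need not hold. All 9 were the highest of their group. *Hmgcs1* had 126.4 CPM in S+P C4 replicate 3, a shallow sample, and the next value was 30.77 CPM. *Idi1* had 3.612 CPM in Sensitized replicate 3 (next 0.4933 CPM). *Fdps* had 5.583 CPM in S+P C5 replicate 6 (next 0.3306 CPM). *Sqle* had 46.31 CPM in Sensitized replicate 2 (next 5.706 CPM) and 34.86 CPM in S+P C4 replicate 6 (next 9.758 CPM). *Lss* had 14.69 CPM in that same S+P C4 sample (next 4.486 CPM). *Insig1* had 30.01 CPM in Sensitized replicate 2 (next 13.28 CPM), 41.39 CPM in S+P C5 replicate 3 (next 13.71 CPM) and 56 CPM in the shallow S+P C7 replicate 3 (next 17.34 CPM).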

How the results depend on the processing

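Over 268 pairs of a comparison and a setting, 21 of 2094 tests of members had an unadjusted p under 0.05. The settings with an FDR under 0.05 and with no minimum fold change reuse the p-values of the main fit. Its 96 tests of members were thus counted more than once. The number of called members moved in 1 comparison, S+P C5 against Sensitized, where DESeq2 called 1 (*Fdps*, 4.25, adjusted p = 0.0582), and where DESeq2 without the shallow samples, chosen after seeing the data, also called 1 (4.26, adjusted p = 0.0441). Over all alternatives that adjusted p ran up to 1.0. With replicate number as a block in fits of only the groups compared, the median over members moved to -2.38 for S+P C4 against Sensitized. For S+P C7 against Sensitized it moved to -1.04 (7 members fitted in each). The median over all genes was -1.47 and -0.74 in these fits. These groups share numbers but not mice. The block changed no call of a member. Of other lipid genes only *Npc2*, *Scd2* and *Mbtps1* were followed in these settings. DESeq2 without the shallow samples called *Npc2* in 2 comparisons and *Scd2* in 1. *Hmgcs1* between S+P C5 and S+P C4 turned to 0.32 under the block. Leaving out 1 replicate at a time, *Fdps* in that comparison ran from -0.51 to 2.88, and the interaction of *Npc2* from -0.28 to 0.037. The cause was not tested. Members without overlap between N+P C5 and Naive numbered 1 or 2 over these settings.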
